A study of Mus musculus with 6 samples.

Results

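Expression of 10 genes that serve as markers of mesothelium, of bile ducts and of keratin filaments was followed in Hepa1-6, a mouse hepatoma line used as a model of liver cells. The genes are Msln, Upk3b, Sprr1a, Krt7, Krt8, Krt18, Krt19, Sox9, Muc1 and Epcam, 10 of 38828 genes with a row in the deposited tables and 10 of 11616 that held enough counts to be tested. They were chosen by name, and selected on their fold changes in these same libraries, because several differed strongly between the groups. Their fold changes are therefore given as a description, with standard errors and no p. Control cells received an siRNA against Renilla Luciferase, which mouse cells do not encode, and the other cells an siRNA against Crebl2, both delivered by Lipofectamine RNAiMAX for 3 days. Each group holds 3 libraries of total RNA. All cells grew in DMEM with high glucose and serum, and neither the siRNA sequences nor separate cultures are given in the labels, so error estimates cover the spread between these libraries, which may be technical.

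Keratins build the intermediate filaments of epithelial cells as pairs of a type I and a type II chain. Krt8 (type II) and Krt18 (type I) are the pair of hepatocytes, whereas Krt7 (type II) and Krt19 (type I) mark bile duct cells, in which the transcription factor Sox9 and the adhesion molecule Epcam are also made. Msln, a lipid-anchored surface glycoprotein, and Upk3b, a uroplakin of the urothelial membrane plaque, are both used as mesothelial markers. Sprr1a is a small proline-rich protein that is cross-linked into the cornified envelope of squamous epithelia, and Muc1 is a transmembrane mucin of glandular and ductal surfaces.

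The libraries held 27082572 to 29158489 counts each. As a check of the labels, the targeted gene Crebl2 had 3248, 3162 and 3041 counts in controls against 813, 826 and 896 with its siRNA, that is 26.9% of the control level after scaling (log2 fold change -1.90, SE 0.0582; edgeR adjusted p = 2.83e-12). The label of a liver cell was checked against 20 hepatocyte markers. Alb stood at 581 ± 29.2 CPM (counts scaled to library size, with TMM factors; SD, n = 3) in controls and Afp at 278 ± 1.21 CPM, while 7 of the 20 were at 0 counts in all libraries, among them Hnf4a, which has 6 bases that no other counted transcript overlaps. The sources used here do not say how reads shared by several transcripts were counted, so a 0 for such a gene does not show absence. However, 5 of the 7 (Fga, Fgg, Serpina1a, Cyp2e1 and Asgr1) have at least 200 bases of their own. In all, 13 of the 20 had too few counts to test, among them Apob, with 6 counts in controls and 16 after knockdown. Only part of the list was thus well counted in these libraries. Near copies of these markers were not sought, so low counts do not settle which of them are expressed. Mitochondrial genes took 0.859% of the counts of Crebl2 siRNA replicate 2 and 2.09 to 2.52% of the counts of the other libraries.

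Each of the 10 genes was counted on 1 transcript that no other counted transcript overlaps on its strand or the other in its exons, and levels are compared between genes per kilobase of it. For Krt7, Krt8 and Krt18, which share sequence with other annotated transcripts, those levels and their ratios are less certain. For 7 of them RefSeq (GRCm38.p6) gives a promoter window of 250 bases before to 50 bases after the start site. Msln, Krt19 and Sox9 have no entry. The 4 windows below show the members with the steepest falls that have a window (Sprr1a and Upk3b) and a pair of type II keratins, Krt7 and Krt8, of which the first fell and the second had groups that overlapped. Capitals mark the words searched, on both strands: TGANTCA (bound by AP-1), GGAATG (bound by TEAD), GGGCGG (the GC box of Sp and KLF factors), TATAAA (the TATA box), TGACGTCA and the shorter TGACG that lies within it (bound by CREB proteins) and ATTGTT (bound by Sox proteins). The windows lie at chr3:92485832-92486131 (minus strand, Sprr1a), chr5:136038246-136038545 (plus strand, Upk3b), chr15:101412153-101412452 (plus strand, Krt7) and chr15:102004293-102004592 (minus strand, Krt8).
Sprr1a: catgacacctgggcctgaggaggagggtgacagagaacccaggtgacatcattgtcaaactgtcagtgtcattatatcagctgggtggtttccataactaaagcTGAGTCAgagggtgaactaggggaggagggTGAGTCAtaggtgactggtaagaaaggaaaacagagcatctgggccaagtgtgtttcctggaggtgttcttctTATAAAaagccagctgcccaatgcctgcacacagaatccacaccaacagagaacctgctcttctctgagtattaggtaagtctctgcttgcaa
Upk3b: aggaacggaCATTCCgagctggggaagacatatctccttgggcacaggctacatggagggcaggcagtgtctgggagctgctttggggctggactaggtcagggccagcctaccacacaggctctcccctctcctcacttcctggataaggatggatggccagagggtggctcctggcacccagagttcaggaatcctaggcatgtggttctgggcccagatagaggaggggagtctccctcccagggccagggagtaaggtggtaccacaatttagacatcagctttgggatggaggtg
Krt7: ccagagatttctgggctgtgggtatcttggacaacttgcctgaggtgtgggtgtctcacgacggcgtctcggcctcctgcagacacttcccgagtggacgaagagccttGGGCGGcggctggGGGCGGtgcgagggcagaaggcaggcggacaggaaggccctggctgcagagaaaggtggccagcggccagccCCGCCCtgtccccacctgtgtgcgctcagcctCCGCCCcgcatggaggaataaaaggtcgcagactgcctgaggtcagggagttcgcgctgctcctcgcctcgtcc
Krt8: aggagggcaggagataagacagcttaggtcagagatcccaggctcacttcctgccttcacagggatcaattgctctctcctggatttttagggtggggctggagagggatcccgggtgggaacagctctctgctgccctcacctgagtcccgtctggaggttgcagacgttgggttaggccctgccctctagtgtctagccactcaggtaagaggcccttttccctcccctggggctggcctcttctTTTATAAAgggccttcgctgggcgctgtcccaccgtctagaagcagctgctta

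The Sprr1a window held TGAGTCA, a match to the AP-1 word, with its first letter at -146 and again at -116 from the RefSeq start site, and a TATA box at -43. That start site lies 14 bases downstream of the start of the counted Sprr1a transcript. The AP-1 word was present in 7.81% of all 32851 windows and in 1 of the 7 members' windows. Upk3b held the TEAD word once, on the other strand, a word found in 14.7% of all windows, and Muc1 held it as well. Krt7 had 4 GC boxes between -141 and -24, where 35.7% of all windows have at least 1. In Krt8, the TATA box overlapped the RefSeq start site, which lies 140 bases from the start of the counted transcript. The TATA box stood in 13.6% of all windows and in 3 of the 7. The words TGACGTCA, TGACG and ATTGTT occurred in 1.79%, 20.8% and 10.7% of all windows and in 0 of these 7. A word match describes the letters of a window and is no evidence of binding, and a missing word says only that these letters are not in this window.

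Mesothelin and uroplakin 3b were the members with the steepest falls, to 24.0% and 23.6% of the control level. Msln lies on chromosome 17 (25748613 to 25754378, minus strand, GRCm38, ENSMUSG00000063011). Controls gave 1610, 2107 and 1932 counts, against 432, 460 and 467 counts with Crebl2 siRNA. Each knockdown library was thus far below the lowest control, control replicate 1. After scaling, Msln went from 67.7 ± 10.0 to 16.3 ± 0.727 CPM (SD, n = 3 each), a log2 fold change of -2.06 (SE 0.0943) or a 4.16-fold lower level. The spread was wider in controls, with a coefficient of variation of 14.8% against 4.47% after knockdown.

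Upk3b, on chromosome 5 (136038496 to 136046487, plus strand, ENSMUSG00000042985), was a weaker gene with the same size of change. Its counts numbered 298, 332 and 288 in controls against 62, 84 and 70 after knockdown, so the groups were well apart. Its level was 11 ± 0.79 CPM in controls and 2.59 ± 0.407 CPM after knockdown (SD over 3 libraries each), a log2 fold change of -2.08 with an SE of 0.129. Summed counts of 918 and 216 gave a depth-scaled ratio of 0.236 (95% exact binomial interval 0.202 to 0.274, counting error only). Among all tested genes, 0.43% had a larger absolute log2 fold change than Upk3b and 0.465% a larger one than Msln.

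Per kilobase of transcript, Sprr1a had the highest control level of the 10 genes and stood second to Krt18 after knockdown, while on the CPM scale Krt18 was higher in all 6 libraries. It lies on chromosome 3 (92483952 to 92485895, minus strand, ENSMUSG00000050359). The controls gave 36366, 39270 and 39179 counts and the knockdown 11549, 11084 and 10412, with no overlap. The level went from 1376 ± 89.4 to 396 ± 19.2 CPM (SD, n = 3 each), 3.47-fold lower (log2 fold change -1.80, SE 0.0568). Per kilobase, its control level of 1707 ± 111 exceeded that of 99.7% of the 4478 tested protein-coding genes that, like it, were counted on 1 transcript with all bases unique. After knockdown it was 491 ± 23.8 CPM per kilobase, below Krt18 in each library.

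**Figure D1:**
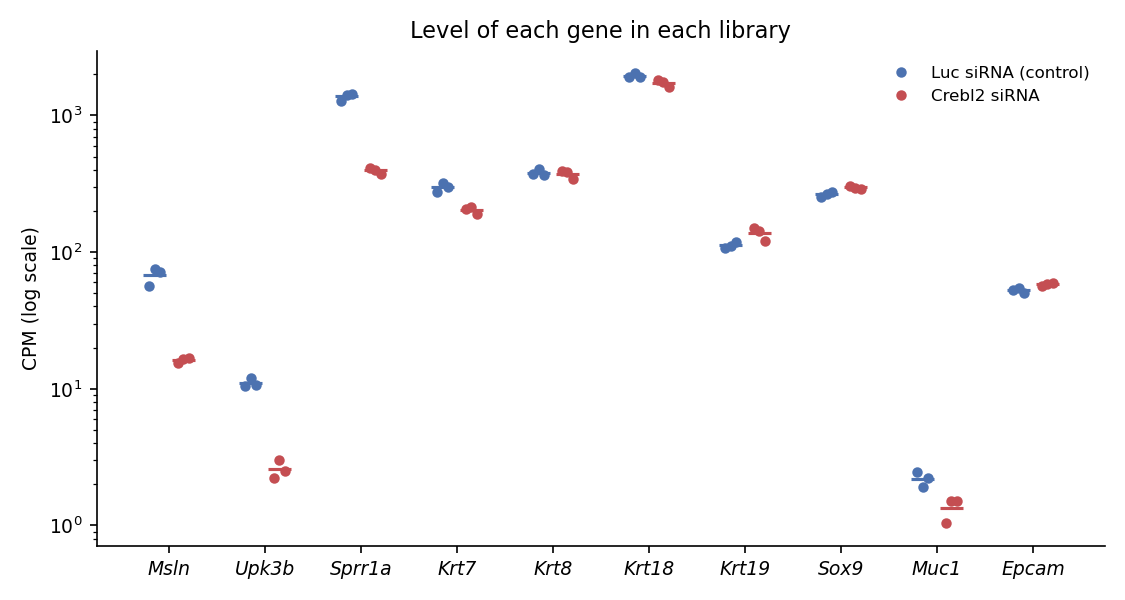
CPM of each of the 10 genes (x axis) in each of the 6 libraries on a log scale (y axis); points are libraries, short lines the group means. Msln, Upk3b and Sprr1a show the widest gap between the groups, with Sprr1a at 1275 to 1446 CPM in controls and 375 to 413 CPM after Crebl2 siRNA, while the groups of Krt8 overlap.

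Among the 4 keratins, Krt7 alone moved by more than 1.2-fold downward, and its usual partner Krt19 moved the other way. Krt7 (chromosome 15, 101411043 to 101430313, plus strand, ENSMUSG00000023039) had 7881, 8979 and 8097 control counts and 5747, 5876 and 5309 after Crebl2 siRNA, each knockdown value being below each control. The means were 299 ± 22.7 and 203 ± 10.4 CPM (SD over 3 libraries each), with a log2 fold change of -0.56 (SE 0.0591). Krt19 (chromosome 11, 100140810 to 100148665, minus strand, ENSMUSG00000020911) had 3089, 3091 and 3205 control counts and 4211, 3974 and 3343 counts in the Crebl2 siRNA libraries. All knockdown libraries stood above the controls after scaling, replicate 3 only just, at 121 CPM against a highest control of 118 CPM. The mean went from 112 ± 5.18 to 138 ± 15.7 CPM (SD over 3 libraries each), with a log2 fold change of 0.30 (SE 0.0704).

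The hepatocyte pair moved little. Krt8 (chromosome 15, 101996698 to 102004482, minus strand, ENSMUSG00000049382) stood at 372, 404 and 364 CPM in the controls and at 391, 384 and 344 CPM after knockdown, so the groups overlapped. Its log2 fold change was -0.03 (SE 0.057) under TMM scaling and 0.02 when libraries were scaled by size alone. Krt18, next to it (chromosome 15, 102028180 to 102032027, plus strand, ENSMUSG00000023043), had 1900, 2034 and 1907 CPM in the controls and 1818, 1744 and 1618 CPM after knockdown. These groups did not overlap, but the gap was narrow, with a log2 fold change of -0.17 (SE 0.0525), or a level of 88.7% of control. Krt18 has a processed pseudogene, Gm5200, alike over 1267 bases at 90.5% identity, and Krt8 one, Krt8-ps, at 98.6% over 941 bases. Neither pseudogene has a row among the counted transcripts used here, and whether reads shared with them were counted was not tested, so the levels of Krt8 and Krt18 are uncertain to that degree. The gene bodies of Krt7 and Krt8 are each overlapped on the other strand by a gene (Gm671 and Gm36026) that likewise has no row. Gm36026 matches 102 bases of the counted Krt8 transcript at 100% identity, so reads there could not be told apart if strand was not used. For Gm671 no match of 100 bases or more to the counted Krt7 transcript was found, and shorter ones were not sought. A stretch of Krt7 between bases 3825 and 4027, within its long 3' untranslated region, is repeated at 90% identity or more in transcripts of 81 other genes.

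Because the pairs form filaments from both chains, levels were also set against each other within each library, which does not depend on scaling. Per kilobase, Krt18 exceeded Krt8 by 6.98 ± 0.139 times in controls and 6.31 ± 0.117 times after knockdown (SD, n = 3 each). The ratio of Krt19 to Krt7 went from 0.98 ± 0.0746 to 1.77 ± 0.134, with values of 1.02, 0.894 and 1.03 in the controls and 1.90, 1.76 and 1.64 after knockdown. The ratio of Krt7 to Krt8 went from 0.376 ± 0.0191 to 0.261 ± 0.00767. The sum of Krt18 and Krt19 over the sum of Krt7 and Krt8 was 5.34 ± 0.11 and 5.37 ± 0.0981, with overlapping groups. Over all keratins in the files, the ratio of type I to type II was 5.27 ± 0.106 in controls and 5.06 ± 0.0883 after knockdown. Every Crebl2 siRNA library was below every control. Krt18, itself a member, weighs most in that ratio, with 72.9 ± 0.14% of keratin transcript per kilobase in controls and 70.3 ± 0.31% after knockdown. Ratios between members restate fold changes of genes picked on these same libraries, so the shift within the duct pair is no separate result. The ratio over the 4 genes overlapped between the groups, and the ratio over all keratins was slightly lower. Together the 4 genes held 91.2 ± 0.216% of keratin transcript per kilobase in controls and 89.5 ± 0.405% after knockdown.

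**Figure D2:**
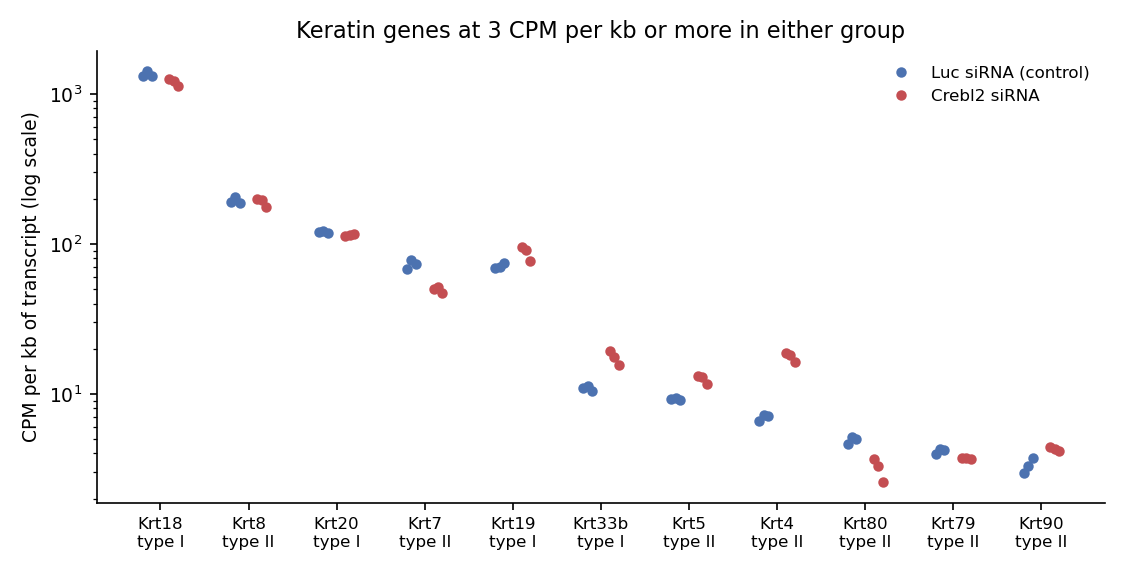
CPM per kilobase of transcript (y axis, log scale) in each library for the 11 keratin genes that reach 3 CPM per kilobase in either group, in order of the control mean. Among the lower genes after Crebl2 siRNA are Krt7 and Krt80, and Krt19, Krt33b, Krt5, Krt4 and Krt90 are higher.

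The duct regulator Sox9 and the adhesion molecule Epcam differed by little. Sox9 (chromosome 11, 112782224 to 112787760, plus strand, ENSMUSG00000000567) had 254, 268 and 277 CPM in controls and 307, 295 and 290 CPM after knockdown, with no overlap, a log2 fold change of 0.16 (SE 0.0499). Epcam (chromosome 17, 87635979 to 87651129, plus strand, ENSMUSG00000045394) had 52.6, 55.0 and 50.3 CPM in controls against 56.7, 58.4 and 59.2 CPM, also without overlap, but did not pass the test (log2 fold change 0.14, SE 0.0573). Neither reached a change of 1.2-fold. Muc1 (chromosome 3, 89229057 to 89233381, plus strand, ENSMUSG00000042784) was barely present. Its counts were 70, 53 and 60 in controls and 29, 42 and 42 after knockdown, and the summed ratio of 0.618 has a 95% exact binomial interval of 0.485 to 0.786. The log2 fold change of -0.69 (SE 0.204) thus carried the largest error of the 10.

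In all, 6 of the 10 genes were called lower (Msln, Upk3b, Sprr1a, Krt7, Krt18 and Muc1) and 2 higher (Krt19 and Sox9) at an edgeR adjusted p under 0.05. Of all 11616 genes tested, 38.9% were called, 20.1% lower and 18.8% higher. With library size as the only scaling the genes called lower and higher numbered 1920 and 2741, against 2338 and 2180 under TMM. Groups did not overlap for 9 of the 10 genes and for 48.8% of all genes. The median log2 fold change was -0.37 over the 10 genes and 0.01 over all. Since these genes were picked for changing, nothing is read from those counts. All 10 passed the low-count filter in both groups. In bulk RNA, fewer cells that make a transcript and less of it per cell cannot be told apart. Without Crebl2 siRNA replicate 2, the library with few mitochondrial counts, log2 fold changes were -2.06 for Msln, -2.20 for Upk3b, -1.80 for Sprr1a and -0.58 for Krt7.

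**Figure D3:**
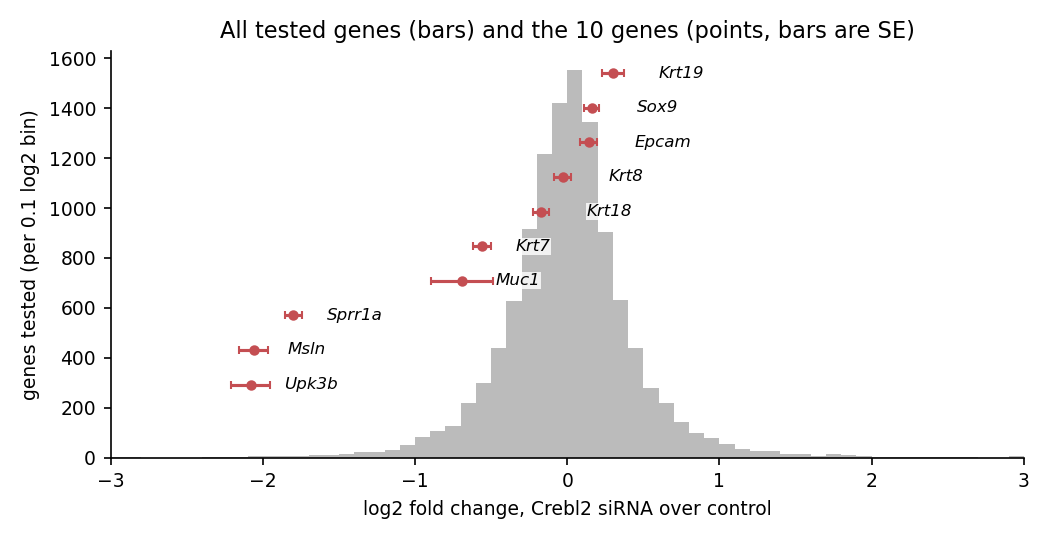
Log2 fold change of Crebl2 siRNA over control for the 10 genes (points, with SE) over the distribution of all 11616 tested genes (grey, genes per bin of log2 fold change; values beyond 3 are drawn at the edge; the height of a point has no meaning). Upk3b, Msln and Sprr1a lie in the lower tail, while Krt8, Krt18, Sox9 and Epcam lie in the bulk.

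The order of the levels changed accordingly. Per kilobase in controls it ran Sprr1a, Krt18, Krt8, Krt7, Krt19, Sox9, Msln, Epcam, Upk3b and Muc1, from 1707 to 0.976 CPM per kilobase. Krt7 and Krt19 overlapped in that order, as did Msln and Epcam, whereas every other pair of neighbours was separate in all 3 libraries. After knockdown Krt18 led at 1202 ± 70.5, Krt19 (87.7 ± 9.97) and Sox9 (71.9 ± 2.17) stood above Krt7 (49.6 ± 2.54), and Msln (7.71 ± 0.344) fell below Epcam (28.5 ± 0.626). Upk3b and Muc1 then overlapped, at 0.734 ± 0.115 and 0.604 ± 0.122.

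Msln and Upk3b were not accompanied by other genes of mesothelium. Of 18 further mesothelial markers, 16 had too few counts to test, and the list summed to 2.44 to 3.19 CPM in controls and 2.72 to 3.75 CPM after knockdown. Wt1, Gpm6a, Bnc1 and Cd200 were at 0 counts in all 6 libraries, although each has at least 262 bases of its own; a count of 0 allows up to 0.105 to 0.111 CPM in a library. Upk1b (3 control counts and 1 after knockdown), Lrrn4 (2 and 2) and Calb2 (1 and 0) were nearly absent. Of the untested genes, Nkain4 (3 and 30 counts) and Efemp1 (7 and 22) were higher in every Crebl2 siRNA library than in any control. Thbd (4 and 0 counts) was lower in every one. The mucin Muc16, to which mesothelin binds, stood at 1.95 ± 0.325 and 1.68 ± 0.26 CPM (log2 fold change -0.22, edgeR adjusted p = 0.422). Aldh1a2, a retinoic acid synthesis enzyme, passed the filter only through the Crebl2 siRNA libraries and rose (38 to 65 counts, log2 fold change 0.77, edgeR adjusted p = 0.0472), a call lost in 9 of 13 alternative settings, where the adjusted p ran from 0.0341 to 0.176. The data thus go against a mesothelial label for the set, and Msln and Upk3b are named here as genes only. Of the other uroplakins, Upk1a (log2 fold change 0.25, adjusted p = 0.364) and 1 more were tested, with 0 called by edgeR, DESeq2 or limma-voom and 0 at an unadjusted p under 0.05.

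Most other genes of the cornified envelope, the structure that holds Sprr1a, had no counts. The list summed to 1410 to 1459 CPM in controls and 1314 to 1399 CPM after knockdown, most of it from Anxa1, S100a11 and S100a10, which many cell types make. Of the 31 further genes, 18 were at 0 counts, including Lor, Flg, Sprr3 and 9 genes of the Sprr2 group, and Sprr1b, the nearest paralog by name, had 7, 8 and 6 counts in controls and 2, 4 and 3 after knockdown. Of the 6 tested, 1 was lowered, the calcium-binding S100a11 (388 ± 7.75 to 346 ± 7.45 CPM, log2 fold change -0.17, edgeR adjusted p = 0.00791), a call lost without Crebl2 siRNA replicate 2 (adjusted p = 0.0532). Of the other abundant genes of the list, Anxa1 had a log2 fold change of -0.13 (adjusted p = 0.051) and S100a10 one of 0.06 (282 ± 6.86 and 295 ± 12.2 CPM, adjusted p = 0.333). The keratin-linking plakins Evpl and Ppl changed by -0.17 and 0.10 and did not pass the test.

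Several other keratins rose. Of 49 keratins outside the 10 genes, 15 were tested, 7 rose and 1 fell. Of these, 5 passed the filter through the Crebl2 siRNA libraries only, which favours a higher value there: Krt15 and Krt31 were called higher, and Krt36, Krt78 and Krt83 were not called. Of the 10 that passed in both groups, 5 rose and 1 fell, where 18.8% and 20.1% of all tested genes did. The mucosal type II keratin Krt4 had 14.1, 15.3 and 15.1 CPM in controls and 39.8, 38.7 and 34.6 CPM after knockdown (log2 fold change 1.35, SE 0.0761; edgeR adjusted p = 1.54e-09). Krt5, the type II chain of basal epithelial cells, rose from 20.3 ± 0.261 to 27.6 ± 1.82 CPM (log2 fold change 0.45, adjusted p = 0.000125). The type I genes Krt23 (60 to 181 counts, log2 fold change 1.59, adjusted p = 0.000105) and Krt33b (0.68, adjusted p = 8.23e-06) rose, the latter with the caution that hair keratins have near-identical relatives. Krt80 fell from 15.1 ± 0.817 to 9.79 ± 1.73 CPM (log2 fold change -0.63, adjusted p = 0.0003). Krt20, a type I keratin of gut and urothelium, was the most abundant of the rest and stood at 227 to 233 CPM in controls and 216 to 223 CPM after knockdown (log2 fold change -0.07, adjusted p = 0.281).

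Genes that anchor keratins or seal epithelia changed in both directions. Of 11 tested genes of desmosomes and keratin anchoring, 2 fell and 3 rose, with a median log2 fold change of -0.11. Among all tested genes 20.1% fell and 18.8% rose, so nothing is read from a mix of directions in this list or those below. Dsg2, the desmosomal cadherin of simple epithelia, was lowered in each library, from 545, 519 and 539 to 267, 285 and 289 CPM (log2 fold change -0.93, SE 0.0485; edgeR adjusted p = 6.63e-10), and its linker plakoglobin (Jup) by -0.28 (adjusted p = 0.000578). The linker Dst (0.90), the hemidesmosome integrin Itga6 (0.38) and the keratin-binding Tchp (0.21) rose (adjusted p = 0.0013, 0.00913 and 0.035). The call of Tchp was lost in 4 of 14 alternatives, where its adjusted p reached 0.203. These were far weaker genes than Dsg2, with control means of 1.77 (Dst), 7.13 (Itga6) and 31.4 CPM (Tchp), and Itga6 has 256 bases of its own. Of 12 tested junction and polarity genes, 4 fell and 2 rose. The claudins Cldn3 (398 ± 25.7 to 228 ± 19.8 CPM, log2 fold change -0.81, adjusted p = 6.18e-08) and Cldn4 (-0.46, adjusted p = 7.79e-06), the adhesion molecule F11r (-0.32) and the polarity protein Pard6b (-0.25) fell, whereas the leaky claudin Cldn2 (26.5 ± 3.3 to 43.1 ± 2.02 CPM, log2 fold change 0.70, adjusted p = 3.95e-06) rose. E-cadherin (Cdh1) had 9 control counts in all and was not tested.

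Other regulators of epithelia followed no single direction, where 20.1% of all tested genes fell and 18.8% rose. Of 9 tested, Esrp2 (log2 fold change -0.20), Epn3 (-0.31) and St14 (-1.36, from 57 to 22 counts) fell, and the surface protease Tmprss2 rose from 174 ± 4.97 to 301 ± 16.8 CPM (log2 fold change 0.79, SE 0.0525; edgeR adjusted p = 8.66e-09). St14 passed the filter through the control libraries only. The call of Esrp2, at an adjusted p of 0.0114, was lost without Crebl2 siRNA replicate 2 (0.0641).

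Further markers of bile ducts and progenitors were also mixed. Of 26, 11 were tested, of which 2 rose, 2 fell and 7 did not pass, where 18.8% of all tested genes rose and 20.1% fell. Bicc1, an RNA-binding protein of tubule cells, fell from 170 ± 6.39 to 107 ± 7.1 CPM (log2 fold change -0.67, SE 0.0571; edgeR adjusted p = 1.33e-07), and the Sox9 relative Sox4 from 336 ± 3.68 to 279 ± 15.9 CPM (-0.27, adjusted p = 0.000488). The stem cell receptor Lgr5 rose from 101 ± 3.35 to 141 ± 12.4 CPM (0.48, adjusted p = 1.38e-05) and the epithelial factor Ehf from 23.0 ± 0.847 to 31.1 ± 2.8 CPM (0.44, adjusted p = 0.000251). Cd24a (0.14, adjusted p = 0.0593) and Pkhd1 (-0.18, adjusted p = 0.0896) did not pass. The duct genes Onecut2, Dmbt1 and Cldn10 were at 0 counts, as were Spp1, Prom1 and Sctr, which have fewer than 200 bases of their own. Cftr had 2 counts in all. Among the other Sox factors, Sox4 was the 1 of 3 tested that was called. Of 4 other mucins tested, 0 were called by edgeR or DESeq2 and 1 by limma-voom, and 1 had an unadjusted p under 0.05.

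Genes of the Notch pathway, which directs duct fate through Sox9 and Hes1, changed in both directions. Of 18 tested genes, 2 rose and 7 fell, with a median log2 fold change of -0.05. Over all tested genes, 18.8% rose and 20.1% fell. The receptors Notch1 (79.1, 78.3 and 69.1 CPM in controls; 153, 175 and 147 CPM after knockdown; log2 fold change 1.07, edgeR adjusted p = 7.62e-09) and Notch3 (0.36, adjusted p = 0.000216) rose. The target Hes1 fell from 35.1 ± 0.908 to 25.3 ± 0.75 CPM (-0.47, adjusted p = 2.26e-05), the ligand Dll1 by -0.76, the fringe enzyme Mfng by -0.46 and the coactivator Maml3 by -0.28 (adjusted p = 0.000325, 0.000265 and 0.00155). The ligand Jag1, at 524 CPM in controls, had a log2 fold change of 0.06 (adjusted p = 0.387). The receptors Notch2 (0.12, adjusted p = 0.172) and Notch4 (-0.09, adjusted p = 0.725), the ligand Jag2 (0.15, adjusted p = 0.405) and the target Hey1 (0.40, adjusted p = 0.366) did not pass either. With DESeq2, 2 rose and 5 fell.

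**Figure D4:**
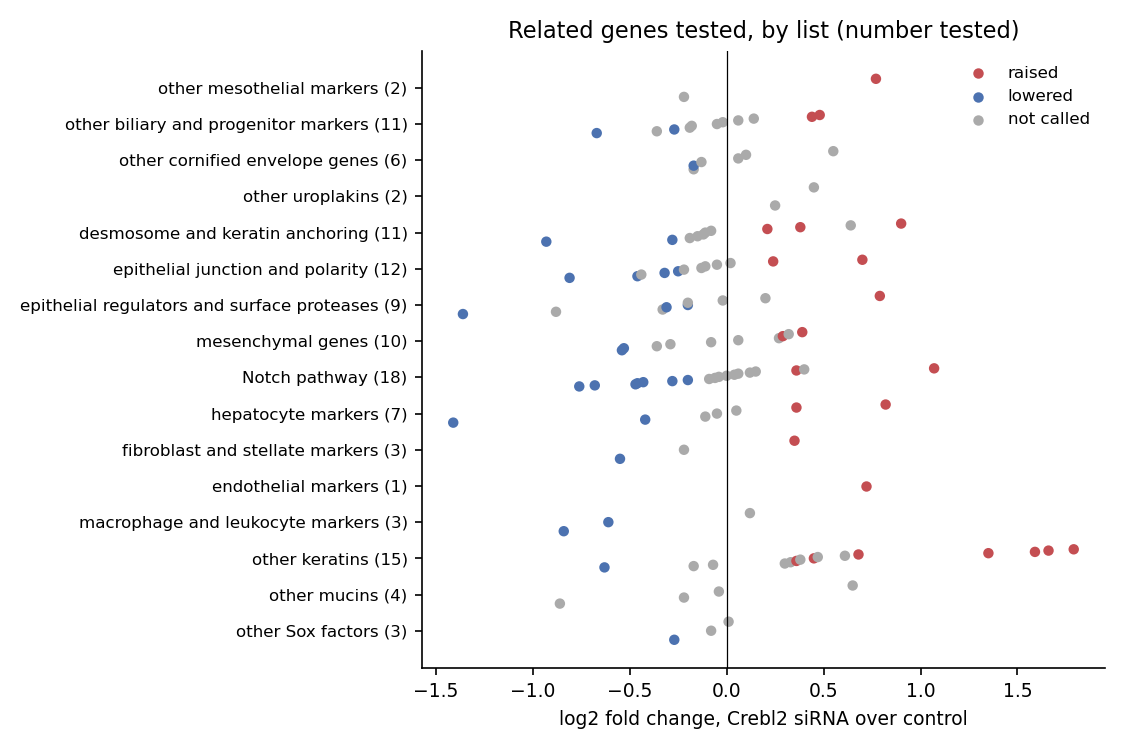
Log2 fold change (x axis) of each tested gene in the lists of related genes and cell type markers (y axis, number tested in brackets); red points were raised, blue lowered and grey not called by edgeR at an adjusted p under 0.05. Most lists hold both directions, and among the other keratins most called genes lie to the right. Of those, Krt15 and Krt31 passed the filter through the Crebl2 siRNA libraries only, which favours a higher value there.

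Markers of other cell types were mostly near 0. Calls among the few tested stand beside 18.8% raised and 20.1% lowered of all tested genes. Of 10 endothelial markers 1 was tested, Vwf, which rose (21.5 ± 1.76 to 35.4 ± 2.1 CPM, log2 fold change 0.72, edgeR adjusted p = 1.61e-06), and Tie1, Emcn and Erg were at 0 counts; the list summed to 19.8 to 23.1 CPM in controls and 33.3 to 37.4 CPM after knockdown. Of 10 leukocyte markers 3 were tested and Cd14 (-0.61, adjusted p = 6.08e-06) and Lyz2 (-0.84, adjusted p = 0.0208, lost without control replicate 2 or 3) fell, with Ptprc at 0 and sums of 37.1 to 39.6 and 23.4 to 28.1 CPM. Of 12 fibroblast markers 3 were tested; Dcn fell (-0.55, adjusted p = 4.22e-07), Des rose (0.35, adjusted p = 0.000923) and Col3a1 was at 0, with sums of 224 to 236 and 178 to 197 CPM. The part of these markers in the changes of the 10 genes was not tested. Of 7 tested hepatocyte markers, Fgb (-1.41, adjusted p = 4.45e-10) and Trf (-0.42, adjusted p = 7.27e-05) fell, Afp (0.36, adjusted p = 9.26e-06) and Tat (0.82, adjusted p = 0.04, lost in 5 of 13 alternatives) rose, and Alb had a log2 fold change of -0.11 (adjusted p = 0.125).

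None of the 10 genes holds the 7-base word GAAATGT in its annotated 3' untranslated region. The word was present in 18.5% of the 9851 genes searched. The regions of the 10 genes ran from 66 bases (Krt18) to 2648 bases (Krt7), and a short region holds any given word less often. The word was searched because an earlier look at these libraries found it more often in lowered genes. Its shares by call therefore repeat that look and are no separate result. The word stood in 636 of 2181 lowered, 957 of 5780 uncalled and 225 of 1890 raised protein-coding genes, or 29.2%, 16.6% and 11.9%. Median lengths of the region were 1385, 996 and 986 bases, and the part of that length was not tested.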

How the data were processed

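RNA was sequenced from 6 libraries of Hepa1-6 cells, 3 per siRNA. Per the labels' protocols, libraries came from a stranded total RNA kit. The deposited files list, for 58611 Ensembl transcripts, the raw counts of reads that the authors made with Trim Galore, TopHat and HTSeq, per the submitters' processing notes, which also name the builds mm9 and GRCm38 without roles; versions, settings and use of strand are not given in the sources used here. Rows were matched to GENCODE M21 (58264 matched, 347 not) and summed per gene. Genes were tested with edgeR 4.0.16 (R 4.3.3) by the quasi-likelihood test, two-sided, on all 6 libraries without a block, with TMM scaling, filterByExpr and Benjamini-Hochberg adjustment over 11616 genes, and called under 0.05. SEs come from the fold change and its F statistic. CPM uses TMM-scaled library sizes (27103153 to 28518888). Counting intervals and the limit for a count of 0 (3 counts) cover counting error only, since reads lack molecular identifiers. The procedure was run on simulated counts in which 200 genes changed, against 4518 called here. That run therefore does not show how the scaling performs with so many changes.

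The 10 genes and all gene lists were chosen with earlier results of these data known. Named genes are the 10, Crebl2, and per list up to 4 called genes per direction with the smallest p, or the most abundant where none was called, and the 3 nearest profiles of each member of at least 5 CPM; Anxa1, Evpl, Ppl, Cd24a, Pkhd1, S100a10, Krt15, Krt20, Krt31, Krt36, Krt78, Krt83, Krt90, Alb, Jag1, Jag2, Notch2, Notch4, Hey1, Vim and genes with few or 0 counts were named after their values were seen. Some genes that this rule names are not reported here. Near copies were sought with blastn 2.17.0 at 90% identity over 100 bases. Alternatives were DESeq2 1.42.0, limma-voom (limma 3.58.1), a replicate block, 2 other scalings, 2 other filters, the transcript with most counts, and leaving out each library.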

Additional observations from a re-analysis of the deposited data

How the results depend on the processing

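Under 14 alternative settings, log2 fold changes of Msln ran from -2.17 to -1.97, of Upk3b from -2.20 to -1.98, of Sprr1a from -1.85 to -1.75 and of Krt7 from -0.61 to -0.51. Calls of these 4 genes and of Krt19 held in all 14. The settings reuse the libraries on which the genes were picked, so calls that hold are no separate support. Members called higher numbered 1 with the replicate block and 1 to 3 when single libraries were left out, against 2. The call of Sox9 was lost with the block and without control replicate 1 or 2, that of Krt18 with library size scaling and without control replicate 2, and that of Muc1 without control replicate 1 or Crebl2 siRNA replicate 1. Muc1 was not tested under the filter of 10 CPM. Epcam was called in 4 settings. Members called lower numbered 5 or 6. Krt8 ran from -0.06 to 0.03.

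Libraries with the same number did not deviate together (correlations of -0.133, -0.0443 and -0.0847), so they were not taken as pairs, and the block gave 1882 raised and 2101 lowered genes. Under all alternatives genes raised ran from 1690 to 2741 and genes lowered from 1736 to 2408, and the genes of the lists from 17 to 29 raised and from 22 to 31 lowered. Depth limits Muc1 and Upk3b most.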

Other observations

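Mesenchymal genes, which are often set against epithelial markers, changed in both directions. So did all tested genes, with 18.8% raised and 20.1% lowered. Of 10 tested, Fn1 (123 ± 9.51 to 84.5 ± 12.1 CPM, log2 fold change -0.54, edgeR adjusted p = 6.89e-05) and the repressor Snai1 (-0.53, adjusted p = 3.64e-05) fell, while the repressors Zeb1 (0.29, adjusted p = 0.00162) and Twist2 (0.39, adjusted p = 0.00676) rose. The filament protein vimentin (Vim) stood at 87.7 ± 5.63 and 91.3 ± 1.94 CPM (0.06, adjusted p = 0.45).

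The genes most like each member were sought by the Euclidean distance between log2 CPM profiles over the 6 libraries, each centred on its own mean, among protein-coding genes of at least 5 CPM. With 2 groups of 3, a small distance chiefly means a group difference of similar size. For Msln the nearest was the chemokine Ccl2 (distance 0.247), followed by Upk3b (0.353) and Crebl2 itself (0.378). For Sprr1a they were Slamf9 (0.231), Crebl2 (0.287) and Ccl2 (0.307). Krt7 lay nearest to the channel Trpv3 (0.0739), Plekhg6 (0.0812) and Rin1 (0.0978), and Krt19 to Dnajc12 (0.061), Rhobtb2 and Tor2a (0.115 each). Upk3b lay nearest to Msln (0.353), Ccl2 (0.382) and Crebl2 (0.43). Of the members that moved little, Sox9 lay nearest to Ints9 (0.0401), Epcam to Tmem206 (0.0434) and Krt8 to Gorasp1 (0.047).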
